A study of Mus musculus with 17 samples.

Results

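The 10 genes studied mark injured and regenerating kidney tubules and were followed in cortex RNA of 4 groups of mice: Havcr1, Vcam1, Cd44, Lcn2, Spp1, Clu, Krt8, Krt18, Krt20 and Sox9. They were taken by name from the table of read counts, 10 of its 48795 genes, by a list drawn up with earlier results of these data known. All 10 passed the minimum for testing, a mean CPM (counts scaled to library size) of 0.1 over the samples compared, in each comparison. The 17 samples were 5 WT, 5 GCERAd (genotype label ATF4 KO), 3 TRACK and 4 GCERAdT (genotype label TRACK-ATF4 KO) kidneys. In GCERAd mice a tamoxifen-inducible Cre driven by the Ggt1 promoter deletes floxed Atf4 in proximal tubules only, so that the other cells of the cortex keep the gene. By the methods, the GCERAd mice received tamoxifen at 6 weeks of age on 2 days, and mice were fasted for 16 hours in metabolic cages a month after the first dose, before their kidneys were taken. Whether the WT mice of these libraries were also given tamoxifen is not given in the sources used here. TRACK is a transgenic mouse model of kidney cancer, known for a constitutively active HIF1A in proximal tubules. The age, tamoxifen treatment and fasting of TRACK and GCERAdT mice were not given in the sources used here.

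An injured proximal tubule loses part of its transport machinery and takes on the features of a simpler, dividing epithelium. Havcr1 encodes KIM-1, a surface receptor that clears dying cells and is almost silent in the healthy kidney, and Lcn2 encodes the iron-siderophore carrier NGAL, a urinary marker of tubular damage. Vcam1 marks proximal tubule cells that have failed to repair, Sox9 is the transcription factor of the early regenerative state, and Krt8, Krt18 and Krt20 are epithelial intermediate filament genes. Spp1 (osteopontin), Clu (clusterin) and Cd44, a hyaluronan and osteopontin receptor, also rise after tubular injury, but the healthy distal nephron already expresses Spp1 and Clu.

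All 5 WT libraries carried Xist (149 to 418 CPM) and no counts of Ddx3y, Eif2s3y or Uty, whereas the other 12 libraries carried Ddx3y at 49.8 to 80.3 CPM and Xist at 0 to 6.07 CPM. Kdm5d, also Y-linked, had 0 to 18 counts in WT and 539 to 1282 elsewhere. By their RNA the WT mice were female and the others male, and sex cannot be told apart from genotype in any comparison with WT. Atf4 itself had 84.5 ± 9.81 CPM in WT, 65.4 ± 9.30 in GCERAd, 83.6 ± 8.93 in TRACK and 92.4 ± 10.0 in GCERAdT (mean ± SD). It was lower in GCERAd than in WT (log2 fold change -0.37, edgeR adjusted p = 0.0306) but not lower in the samples labelled GCERAdT than in TRACK (0.15, adjusted p = 0.472), and the counts do not separate its exons. Processed pseudogenes took 0.0320 to 0.0380% of the counts in 8 libraries, called kind A, and 0.0574 to 0.0784% in the other 9, called kind B. Kind B comprised WT 2, GCERAd 3, 4 and 5, GCERAdT 3 and 4, and all 3 TRACK libraries. A fit with kind as a covariate therefore sets TRACK in effect against WT 2 alone, or against GCERAdT 3 and 4. The methods speak of 3 to 4 mice per cohort where WT and GCERAd have 5 libraries each. WT 1 and 2, GCERAd 2 and 3, and GCERAdT 2 and 3 may be repeat libraries, so p-values may rest partly on technical spread. Among pairs of unlike kind in their groups, these had the highest correlation of expression left after group and kind (-0.117, 0.411 and -0.0946). Such values do not establish a repeat, and GCERAd 4 and 5, both kind B, had 0.475. The paper's lane summary lists some sample names again with an added letter, without a link to these labels. Each refit below left out 1 library, so another library of the same mouse may have stayed in. Totals of counts on genes ran from 53688512 to 71364561, and the limit that a count of 0 allows, 3 counts, was 0.0420 to 0.0559 CPM, which covers counting error only.

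By the GENCODE M21 annotation of GRCm38, Havcr1 spans chr11:46735080-46779578 on the plus strand with a merged exon length of 2311 bases. Krt20 (chr11:99428403-99438150, minus strand) and Sox9 (chr11:112782224-112787760, plus strand) are on the same chromosome. Krt8 (chr15:101996698-102004482, minus strand) and Krt18 (chr15:102028180-102032027, plus strand) are neighbours in opposite orientation. Lcn2 and Cd44 are on chromosome 2, Vcam1 on 3, Spp1 on 5 and Clu on 14. The counting's strand setting is not given in the sources used here. Vcam1 and Krt8 share exonic bases with a gene on the opposite strand (61 and 101 bases), and Spp1 shares 309 exonic bases with a short transcript model, Gm42793, on its own strand.

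For genes called higher in TRACK than in WT, bases upstream of their starts are shown because the TRACK transgene is known to encode a hypoxia-inducible factor. RefSeq's promoter table (GRCm38.p6) held 10 windows for 7 of the 10 genes, with no entry for Vcam1, Sox9 and Clu. The 4 windows below, chosen after the values were seen, are those of such genes that contain no annotated exon base (Havcr1, Cd44 and Krt20). The windows of Lcn2 and Krt18, also called higher, contain 197 and 36 exon bases and no ACGTG, and are not printed. Havcr1 window 1 contains 162 exon bases and no ACGTG and is not printed either. Each is the 250 bases before a start, 5′ to 3′ on the gene's strand, and capitals mark ACGTG, the core that hypoxia-inducible factors bind.
Havcr1 window 2, chr11:46750261-46750510, plus strand: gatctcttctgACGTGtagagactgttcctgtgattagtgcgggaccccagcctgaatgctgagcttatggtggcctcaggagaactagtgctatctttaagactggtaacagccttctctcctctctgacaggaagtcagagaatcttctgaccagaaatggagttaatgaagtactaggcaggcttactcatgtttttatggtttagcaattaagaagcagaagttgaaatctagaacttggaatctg
Havcr1 window 3, chr11:46750918-46751167, plus strand: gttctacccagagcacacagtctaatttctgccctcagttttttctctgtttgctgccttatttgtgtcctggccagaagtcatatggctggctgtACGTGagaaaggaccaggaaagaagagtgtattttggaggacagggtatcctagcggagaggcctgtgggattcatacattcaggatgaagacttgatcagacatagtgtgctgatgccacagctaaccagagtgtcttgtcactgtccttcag
Cd44, chr2:102901666-102901915, minus strand: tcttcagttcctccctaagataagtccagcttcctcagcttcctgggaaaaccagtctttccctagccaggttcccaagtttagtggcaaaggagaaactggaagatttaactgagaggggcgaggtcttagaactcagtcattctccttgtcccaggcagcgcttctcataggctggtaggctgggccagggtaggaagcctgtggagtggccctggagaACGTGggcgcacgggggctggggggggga
Krt20, chr11:99438154-99438403, minus strand: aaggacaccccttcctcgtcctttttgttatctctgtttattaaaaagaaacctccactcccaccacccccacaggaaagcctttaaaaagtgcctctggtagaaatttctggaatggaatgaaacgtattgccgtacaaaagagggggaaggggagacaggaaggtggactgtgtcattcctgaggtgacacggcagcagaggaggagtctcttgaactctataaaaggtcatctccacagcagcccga
ACGTG was present on either strand in 3 of the members' 10 windows. It lay at -239 to -235 in Havcr1 window 2, at -154 to -150 in Havcr1 window 3 and at -29 to -25 from the Cd44 start. Both Havcr1 windows belong to internal starts, within the annotated span of the gene. Among all 32851 promoter windows of this length, 16.6% held it. The AP-1 motif TGANTCA, which 6.75% of all windows held, and the composite motif TGATGNAA of ATF4 and C/EBP factors, which 3.45% held, were in none of the 10. The motifs do not overlap each other here, and a match of letters is not a binding site.

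Each sample's values are plotted by gene and group, and the fold changes by comparison.

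**Figure D1:**
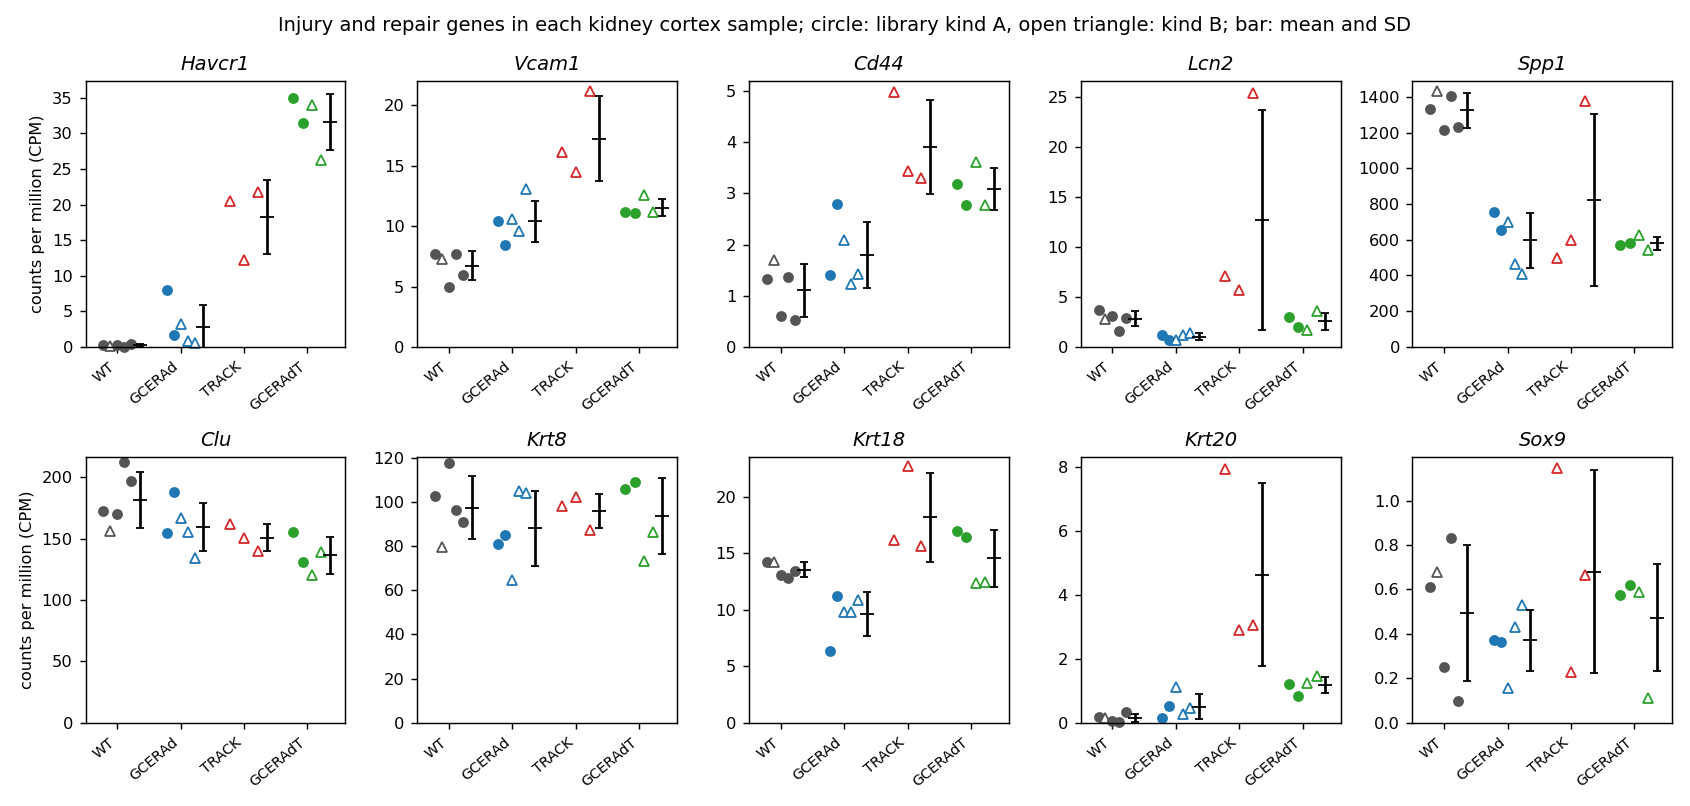
CPM (linear axis from 0) of the 10 genes in each of the 17 samples, by group, with filled circles for kind A and open triangles for kind B libraries and a bar for each mean ± SD. Havcr1 is highest in GCERAdT (26.2 to 35.0 CPM), while Spp1 is highest in WT and in TRACK 3 (1375 CPM).

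**Figure D2:**
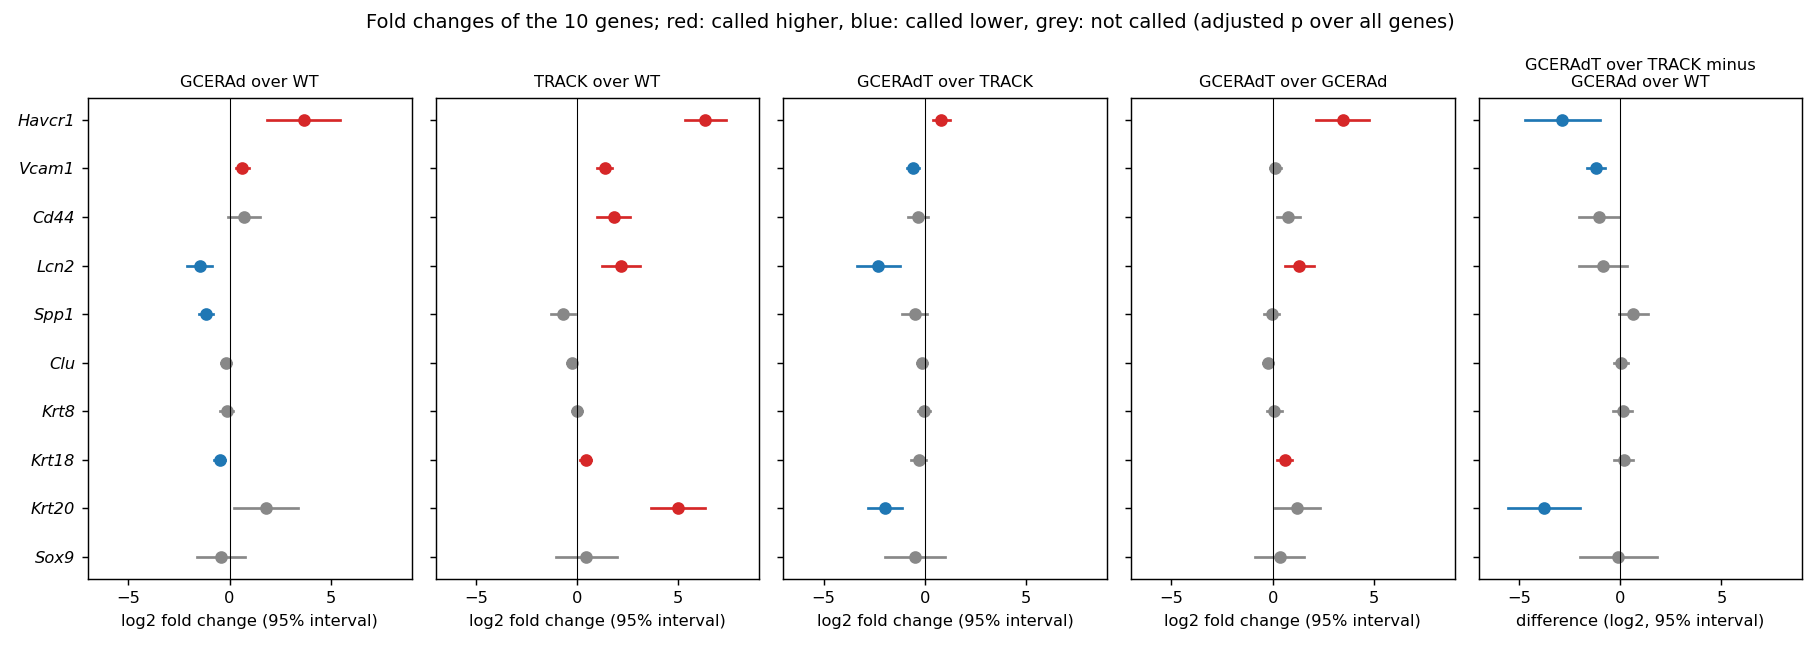
Log2 fold changes with 95% intervals (horizontal axis) of the 10 genes (vertical axis) in 4 comparisons, and the difference of the ATF4 contrasts in the last panel, where red is called higher, blue called lower, grey not called (threshold 0.05 on the adjusted p). The 6 members called higher in TRACK over WT lie right of 0, whereas GCERAd over WT has 2 called higher and 3 called lower.

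The ATF4 knockout label in mice without the transgene (GCERAd over WT) went with changes in both directions among the markers. Of the 10 genes, 2 were called higher (Havcr1 and Vcam1) and 3 lower (Spp1, Lcn2 and Krt18) with adjusted p no higher than 0.05 (edgeR quasi-likelihood test, 17138 genes). Over all genes tested, 20.0% were called in this comparison, 10.3% higher and 9.72% lower. The members' median log2 fold change was -0.17, beside 0.00 over all genes. Groups did not overlap for 5 members, which was also true of 15.7% of all genes.

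In TRACK over WT 6 markers were called higher (Havcr1, Krt20, Lcn2, Cd44, Vcam1 and Krt18) and 0 lower by edgeR. At an unadjusted p under 0.05 edgeR had 2 lower, Spp1 and Clu, and DESeq2 called 1 lower, Clu (log2 fold change -0.27, adjusted p = 0.0423). In this comparison 35.7% of the 17401 genes tested were called, 18.2% higher and 17.5% lower. The members' median log2 fold change was 0.90 beside -0.01 over all genes, and groups did not overlap for 6 members and for 37.2% of all genes.

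With the knockout label added to the transgene (GCERAdT over TRACK), 1 member was called higher (Havcr1) and 3 lower (Krt20, Lcn2 and Vcam1), where 4.83% of 17630 genes were called, 1.85% higher and 2.98% lower. Both groups carried Y-linked genes. The members' median log2 fold change was -0.42 beside 0.02 over all genes, and groups did not overlap for 4 members and for 19.7% of all genes. With library kind as a covariate none of the members was called, and the number called ranged from 0 to 3 when 1 library was left out (0 without GCERAdT 2 or 3, and 1 without TRACK 1 or GCERAdT 1).

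With the transgene added to the knockout label (GCERAdT over GCERAd), 3 members were called higher (Havcr1, Lcn2 and Krt18) and 0 lower by edgeR, also at an unadjusted p under 0.05 and by DESeq2. DESeq2 called 4 higher, with Cd44 as the addition (0.77, adjusted p = 0.0346), and leaving out GCERAdT 1 left 1 of the 3 edgeR calls. Here 12.9% of the 17428 genes tested were called, 6.3% higher and 6.6% lower. With the replicate number as a block, which also carries library kind in both groups, 3962 genes were called instead of 2248. The members' median log2 fold change was 0.47 beside 0.02, and groups did not overlap for 3 members and for 15.6% of all genes. The comparisons share samples pairwise, so they are not independent of each other.

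Whether the knockout contrast differed between mice with and without the transgene was tested as an interaction over all 17 samples. Vcam1, Krt20 and Havcr1 were called, each with a lower fold change in the transgenic pair, and 0 members had a higher one by edgeR, at an unadjusted p under 0.05 or by DESeq2. DESeq2 called 2 of the 3 and gave no adjusted p for Havcr1. Over all genes, 18.5% were called, 8.57% higher and 9.9% lower.

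Havcr1, the KIM-1 gene, had the largest fold change of the members in GCERAd over WT, TRACK over WT and GCERAdT over GCERAd. In WT the libraries held 0 to 29 counts, which is 0 to 0.478 CPM with a median of 0.209. GCERAd libraries 1 to 5 held 7.94, 1.74, 3.21, 0.825 and 0.582 CPM, TRACK libraries 20.5, 12.2 and 21.8, and GCERAdT libraries 35.0, 31.4, 34.0 and 26.2. The groups did not overlap at any step, and their order was WT, GCERAd, TRACK and GCERAdT. GCERAd 1 was far above the rest of its group, and GCERAd 4 and 5, which stood apart from GCERAd 1 to 3 in expression over all genes, were just above the highest WT library.

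The log2 fold change of Havcr1 was 3.67 in GCERAd over WT (SE 0.83, adjusted p = 0.00789, edgeR), a 12.7-fold rise. Without GCERAd 4 and 5 it was 4.25 (adjusted p = 0.000873), and leaving out single libraries gave 2.82 (without GCERAd 1) to 4.16 (without WT 5), with the call kept each time. Over WT, TRACK was 79.9-fold higher (log2 6.32, SE 0.46, adjusted p = 3.78e-06). GCERAdT was 1.75-fold above TRACK (log2 0.81, SE 0.19, adjusted p = 0.0363). Here the call was lost when any of TRACK 1, TRACK 2, GCERAdT 1, GCERAdT 2 or GCERAdT 3 was left out, with adjusted p between 0.0661 and 0.0953. Fitting all 17 samples together ended this call by a wide margin (log2 0.8, adjusted p = 0.467). It also ended once kind entered the model (0.73, adjusted p = 0.132) or kind B alone was kept (0.73, adjusted p = 0.225). Summing the possible repeats gave 0.79 (adjusted p = 0.0862), again without a call. Over GCERAd, GCERAdT was 11.0-fold higher (log2 3.46, SE 0.60, adjusted p = 0.00336), with a log2 value of 4.30 without GCERAd 1 and 2.87 without GCERAd 4 and 5, both called. The knockout contrast was smaller with the transgene by 2.87 on the log2 scale (95% interval -4.73 to -1.0, adjusted p = 0.0313). It was -2.01 without GCERAd 1 (adjusted p = 0.0444), and the call was lost without WT 1, WT 4, TRACK 1, TRACK 3 or GCERAdT 2, with adjusted p between 0.0539 and 0.0657. This order holds for folds, with WT near 0 counts. In mean CPM the rise was larger with the transgene (18.2 to 31.7) than without it (0.221 to 2.86).

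Vcam1, an adhesion receptor for the integrin that Itga4 and Itgb1 encode, held 7.72, 7.28, 4.98, 7.70 and 5.92 CPM in the WT libraries and 10.4, 8.43, 10.6, 9.58 and 13.1 in the GCERAd libraries. The 3 TRACK libraries held 16.1, 14.5 and 21.2 CPM, and the 4 GCERAdT libraries 11.2, 11.1, 12.6 and 11.2. WT was below all other groups and TRACK above them, while GCERAd and GCERAdT overlapped. GCERAd over WT was 0.63 (SE 0.15, adjusted p = 0.0103), TRACK over WT 1.36 (SE 0.17, adjusted p = 0.000154) and GCERAdT over TRACK -0.58 (SE 0.14, adjusted p = 0.0414).

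The difference of both knockout contrasts was called for Vcam1, at -1.21 (SE 0.22, adjusted p = 0.000945, edgeR). It was called in each fit without 1 library (-1.32 to -1.04) and when library kind was fitted as a covariate (-1.06, adjusted p = 0.00574). The call of GCERAdT over TRACK was lost without TRACK 1, TRACK 3 or any single GCERAdT library, with adjusted p between 0.0563 and 0.12. GCERAdT over GCERAd was 0.14 (95% interval -0.13 to 0.41).

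Endothelial cells can also express Vcam1, and the summed CPM of 5 endothelial markers moved with its group means. That sum was 231 to 262 in WT, 250 to 301 in GCERAd, 401 to 460 in TRACK and 328 to 367 in GCERAdT, with no marker at 0. The sum of 6 fibroblast and mural markers was 98.5 to 112 in WT, 125 to 193 in GCERAd, 169 to 311 in TRACK and 128 to 173 in GCERAdT. TRACK 3, the highest sample in Vcam1 (21.2 CPM), was also the highest in both sums (460 and 311). Their part in the result was not tested. In these bulk samples, more cells of a type and more RNA per cell cannot be told apart.

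**Figure D3:**
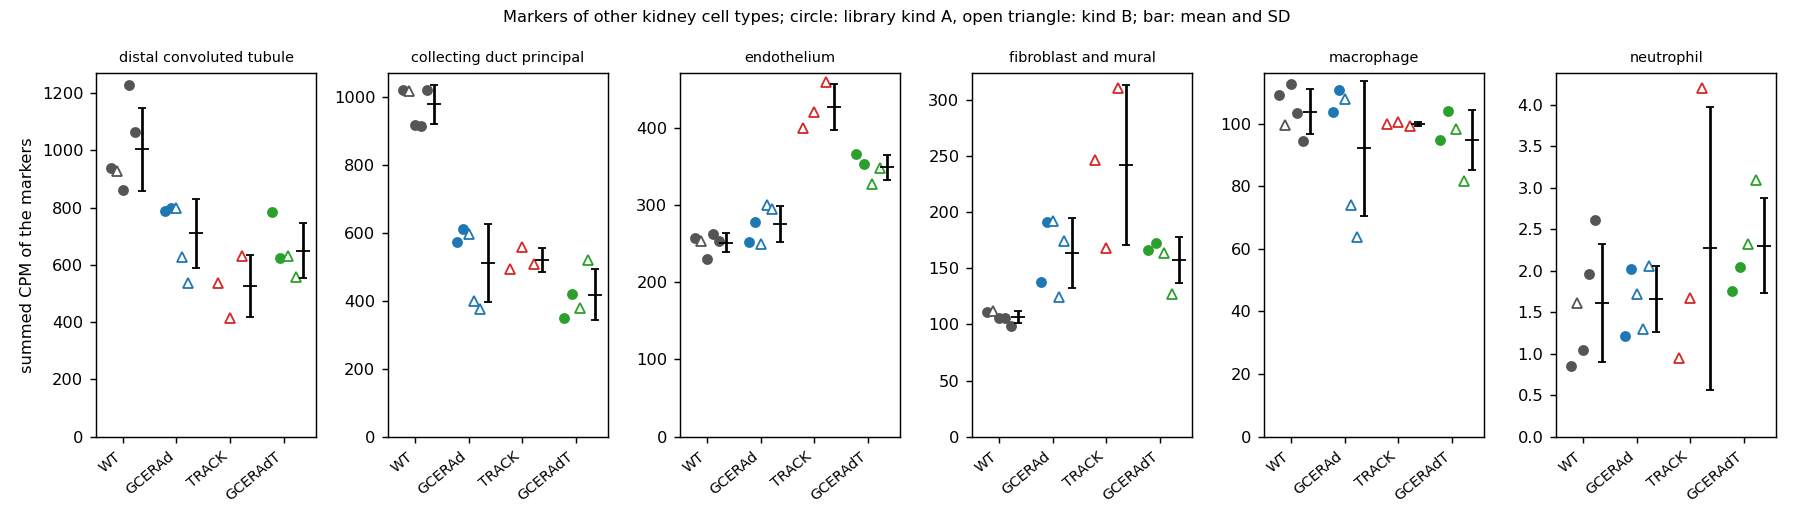
Summed CPM (vertical axis from 0) of the marker genes of 6 other kidney cell types in each sample by group, with circles for kind A, open triangles for kind B libraries and bars for mean ± SD. The endothelial sum of the 3 TRACK samples (401 to 460) lies above that of all other groups, and the collecting duct sum of WT (914 to 1020) above all others.

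Cd44 was a low-level gene here. WT libraries held 1.33, 1.70, 0.610, 1.37 and 0.528 CPM, and GCERAd libraries 1.41, 2.79, 2.10, 1.24 and 1.43. TRACK libraries held 4.97, 3.44 and 3.30, and GCERAdT libraries 3.18, 2.77, 3.61 and 2.78. Among neighbouring groups in the order WT, GCERAd, GCERAdT, TRACK, each overlapped the next, but TRACK and WT did not.

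TRACK was 3.51-fold above WT in Cd44 (log2 1.81, SE 0.37, adjusted p = 0.0033, edgeR). Within kind B, which leaves WT 2 as the lone WT library and assumes that it varies like the others, the value was 1.19 (adjusted p = 0.117), and with kind as a covariate it was 1.19 (adjusted p = 0.206). GCERAd over WT was 0.70 (95% interval -0.09 to 1.49, adjusted p = 0.21) and GCERAdT over GCERAd 0.78 (0.21 to 1.35, adjusted p = 0.0728), neither called, although the latter was called without GCERAd 2 (0.99, adjusted p = 0.0246). GCERAdT over TRACK was -0.33 (-0.82 to 0.15).

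Among the secreted proteins, Lcn2 was lowest in GCERAd. Its libraries held 1.15, 0.645, 0.693, 1.20 and 1.43 CPM there, and 3.68, 2.79, 3.07, 1.64 and 2.94 in WT. TRACK libraries held 7.10, 5.65 and 25.4, and GCERAdT libraries 2.99, 2.01, 1.67 and 3.58. TRACK 3 thus held several times the level of the other 2 TRACK libraries, GCERAd was below all other samples, and GCERAdT overlapped WT.

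Lcn2 was 2.76-fold lower in GCERAd than in WT (log2 -1.47, SE 0.28, adjusted p = 0.00304, edgeR) and 4.49-fold higher in TRACK than in WT (log2 2.17, SE 0.43, adjusted p = 0.00271). GCERAdT was 4.96-fold below TRACK (log2 -2.31, SE 0.48, adjusted p = 0.0226). Without TRACK 3, TRACK over WT was 1.17 (adjusted p = 0.00702) and GCERAdT over TRACK -1.31 (adjusted p = 0.0419), both still called. Without GCERAdT 1, 2 or 3, GCERAdT over TRACK was not called (adjusted p between 0.0552 and 0.0788), and with kind as a covariate neither it (adjusted p = 0.108) nor TRACK over WT (adjusted p = 0.106) was. GCERAdT over GCERAd was 1.32 (adjusted p = 0.0207), and this call was lost without GCERAdT 1 or GCERAdT 4, with adjusted p of 0.0628 and 0.064.

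Neutrophils also store the protein of Lcn2. The summed CPM of 5 neutrophil markers was 0.850 to 2.61 in WT, 1.21 to 2.06 in GCERAd, 0.943 to 4.20 in TRACK and 1.76 to 3.09 in GCERAdT, and the defining marker Ly6g was at 0 counts in all WT and GCERAd libraries. The groups overlapped in this sum, and TRACK 3, the highest library in Lcn2, was also the highest in it. The part of neutrophils in the result was not tested.

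Spp1 was by far the most abundant of the 10, at 59.9 to 84.5% of their summed counts. WT libraries held 1332, 1434, 1217, 1407 and 1233 CPM. GCERAd libraries held 755, 655, 702, 463 and 406, and GCERAdT libraries 569, 581, 625 and 542. In TRACK the values were 499, 596 and 1375. All samples outside WT except TRACK 3 were thus below all WT samples, and TRACK 3 lay within the WT range.

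GCERAd was 2.22-fold below WT in Spp1 (log2 -1.15, SE 0.16, adjusted p = 0.000347, edgeR), and -0.91 without GCERAd 4 and 5 (adjusted p = 1.81e-05). TRACK over WT was -0.69 (95% interval -1.28 to -0.10, adjusted p = 0.0664) and not called, whereas without TRACK 3 it was -1.28 (adjusted p = 1.38e-05). It was also called with no minimum on CPM (adjusted p = 0.0287) and with all 17 samples in 1 fit (adjusted p = 0.0484). Without TRACK 3, GCERAdT over TRACK turned from -0.50 to 0.09, and the difference of the knockout contrasts moved from 0.65 (adjusted p = 0.205) to 1.23 (adjusted p = 0.00255). These 3 values thus rested on TRACK 3. GCERAdT over GCERAd was -0.04 (-0.42 to 0.34) and not called, but without GCERAd 4 and 5 it was -0.28 and called (adjusted p = 0.0386).

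The distal nephron expresses Spp1, and the marker sums of collecting duct principal cells and distal convoluted tubule were also lower outside WT. The sum of 5 collecting duct principal cell markers was 914 to 1020 CPM in WT, 375 to 611 in GCERAd, 493 to 558 in TRACK and 350 to 521 in GCERAdT. The sum of 4 distal convoluted tubule markers was 860 to 1229 in WT, 536 to 799 in GCERAd, 414 to 630 in TRACK and 558 to 785 in GCERAdT. For the sum of 5 thick ascending limb markers, TRACK (5120 to 7590) overlapped WT (6905 to 10151). GCERAd (4699 to 6712) and GCERAdT (5998 to 6335) were below WT in that sum. Taken singly, 3 of these 5 markers were called lower and 0 higher in TRACK over WT by edgeR. Of all genes tested there, 17.5% were called lower. The part of these segments in the result was not tested.

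Clu, a secreted chaperone, varied little. It held 156 to 212 CPM in WT, 134 to 188 in GCERAd, 139 to 162 in TRACK and 120 to 155 in GCERAdT, with overlap at each step of that order. TRACK over WT was -0.27 (95% interval -0.50 to -0.04, adjusted p = 0.0668, edgeR) and was called without WT 2 (adjusted p = 0.021) and with possible repeat libraries summed (adjusted p = 0.0391). The other 3 comparisons lay between -0.23 and -0.14 and were not called.

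Among the keratins, Krt8 was called in no comparison of all libraries. Krt8, which with Krt18 forms the filaments of simple epithelia, held 79.5 to 118 CPM in WT, 64.6 to 105 in GCERAd, 87.5 to 102 in TRACK and 73.2 to 109 in GCERAdT. All groups overlapped. Its log2 fold changes were -0.15 (95% interval -0.45 to 0.15), -0.03 (-0.28 to 0.23), -0.03 (-0.33 to 0.27) and 0.09 (-0.27 to 0.44) in GCERAd over WT, TRACK over WT, GCERAdT over TRACK and GCERAdT over GCERAd, none of them called. Within kind A, GCERAdT over GCERAd was 0.37 and called (adjusted p = 0.0208).

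Krt18, the partner of Krt8, was lower in GCERAd. WT libraries held 14.2, 14.3, 13.1, 12.8 and 13.5 CPM, and GCERAd libraries 6.39, 11.2, 9.81, 9.84 and 10.9. TRACK libraries held 16.2, 22.8 and 15.6, and GCERAdT libraries 17.0, 16.5, 12.4 and 12.4. GCERAd was below all WT and GCERAdT samples, and TRACK above all WT samples.

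GCERAd over WT was -0.50 in Krt18 (SE 0.13, adjusted p = 0.0199, edgeR). TRACK over WT was 0.42 (SE 0.12, adjusted p = 0.0217), a call that was lost without TRACK 2 (0.23, adjusted p = 0.124). It was also lost with all 17 samples in 1 edgeR fit (0.42, adjusted p = 0.0577) and with the replicate block (0.37, adjusted p = 0.1). With library kind as a covariate, TRACK over WT was 0.35. GCERAdT over GCERAd was 0.59 (SE 0.17, adjusted p = 0.0393), and this call was lost without GCERAd 3, GCERAd 4, GCERAdT 1 or GCERAdT 2 (adjusted p between 0.0574 and 0.125). GCERAdT over TRACK was -0.32 (-0.69 to 0.05), and the difference of the contrasts was 0.17 (-0.30 to 0.65).

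Per length of merged exons, the ratio of Krt8 to Krt18 was 5.30 ± 0.92 in WT, 6.92 ± 1.79 in GCERAd, 3.95 ± 0.59 in TRACK and 4.72 ± 0.33 in GCERAdT. The GCERAd samples spread from 4.84 to 9.31 and overlapped WT. A processed copy, Krt8-ps, held at most 38 counts.

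**Figure D4:**
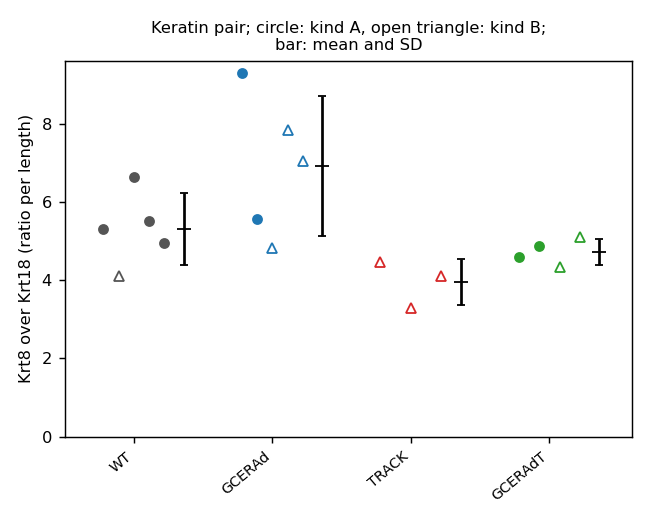
Ratio of Krt8 to Krt18 per length of merged exons (vertical axis from 0) in each sample by group, with circles for kind A, open triangles for kind B libraries and bars for mean ± SD. The ratio spans 3.30 to 9.31, and all TRACK values (3.30 to 4.45) are below those of GCERAd (4.84 to 9.31).

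Krt20, a keratin of urothelium and gut that injured proximal tubules turn on, was nearly absent in WT. Its libraries held 11, 8, 3, 1 and 20 counts there, at 0.0185 to 0.330 CPM. GCERAd libraries held 0.140, 0.513, 1.13, 0.262 and 0.458 CPM, TRACK libraries 7.91, 2.90 and 3.06, and GCERAdT libraries 1.19, 0.825, 1.24 and 1.44. TRACK was above all other samples, and the remaining groups overlapped their neighbours.

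TRACK over WT was 31.7-fold in Krt20 (log2 4.99, SE 0.60, adjusted p = 0.000127, edgeR). Leaving out single libraries gave log2 values from 4.36 (without TRACK 1) to 5.55 (without WT 5), with the call kept each time. GCERAdT was 3.90-fold below TRACK (log2 -1.96, SE 0.37, adjusted p = 0.0152), and -1.34 without TRACK 1 (adjusted p = 0.0643). It was also not called without GCERAdT 2 or 3 (adjusted p of 0.0541 and 0.0502). GCERAd over WT was 1.80 (95% interval 0.23 to 3.38, adjusted p = 0.103) and GCERAdT over GCERAd 1.23 (0.10 to 2.36, adjusted p = 0.151), neither called. The former was called by DESeq2 (1.82, adjusted p = 0.0495) and with all 17 samples in 1 edgeR fit (1.79, adjusted p = 0.0356), and the latter without GCERAd 3 (1.77, adjusted p = 0.0367). The knockout contrasts differed by -3.76 (SE 0.85, adjusted p = 0.00535), and between -4.34 and -3.14 (without TRACK 1) when single libraries were left out.

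Urothelium also expresses Krt20. The summed CPM of 5 urothelial markers was 4.30 to 9.34 in WT, 1.59 to 20.9 in GCERAd, 1.60 to 12.4 in TRACK and 1.85 to 10.9 in GCERAdT, and the groups overlapped. Its part in the result was not tested.

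Sox9 was at the limit of what this depth resolves between groups. Libraries held 6 to 62 counts, at 0.0990 to 0.831 CPM in WT, 0.156 to 0.529 in GCERAd, 0.228 to 1.15 in TRACK and 0.110 to 0.619 in GCERAdT. No comparison was called, and all groups overlapped. The log2 fold changes lay between -0.51 and 0.45, and the 95% interval of TRACK over WT ran from -1.05 to 1.95, so that a 2-fold difference was not detectable at this depth and number of samples.

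Other genes of the injury and repair response were taken from a fixed list of 46, of which 45 were tested. In TRACK over WT 23 were called higher and 5 lower, with a median log2 fold change of 0.49 beside -0.01 over all genes. Of all genes tested there, 18.2% were called higher and 17.5% lower. With library kind as a covariate 13 were called in place of these 28. Hmox1, the haem-degrading stress enzyme, was 5.19-fold higher (74.3 ± 32.9 against 14.3 ± 1.50 CPM, adjusted p = 1.42e-05, edgeR). The macrophage growth factor gene Il34 was 3.97-fold higher (adjusted p = 2.45e-05) and Myc 3.79-fold (adjusted p = 0.000723). The 5 lower ones included Itgb6 (2.87-fold, adjusted p = 7.1e-06), Prom1 (2.53-fold, 8.61e-06), Igfbp7 (1.70-fold, 0.000304) and Dcdc2a (1.56-fold, 0.00901).

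In GCERAd over WT the same list had 5 called higher and 8 lower (median -0.09), where 10.3% of all genes were called higher and 9.72% lower. Il34 was 2.72-fold higher (adjusted p = 0.00251), Hmox1 2.49-fold (0.0102), Ccn2, a matricellular growth factor, 2.00-fold (0.00304) and Hbegf, an EGF receptor ligand, 1.45-fold (0.00869). Prom1, which encodes the progenitor marker CD133, was 3.29-fold lower (52.0 ± 8.34 against 171 ± 8.69 CPM, adjusted p = 6.78e-07, edgeR), and Fgb, Dcdc2a and Cd24a were lower by 3.22-, 1.58- and 1.56-fold.

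In GCERAdT over TRACK, where 4.83% of all genes were called, 2 of the 45 were called higher and 3 lower (median -0.25): Itgb6, an epithelial integrin chain, was 2.10-fold higher (adjusted p = 0.00139, edgeR) and Dcdc2a 1.88-fold (0.0121), and S100a6, Ccn2 and the filament gene Vim were lower by 1.60-, 1.52- and 1.43-fold. Adding the transgene to the knockout label went with 13 called higher and 0 lower of the 45 by edgeR (median 0.31). Over all genes, 6.3% were called higher and 6.6% lower in that comparison. DESeq2 also called 0 lower, and 1 was lower at an unadjusted p under 0.05. With the replicate block 22 were called. Cdkn1a, the p21 cell cycle inhibitor, was 6.99-fold higher (54.2 ± 14.6 against 7.74 ± 3.74 CPM, adjusted p = 0.00016, edgeR). The complement gene C3 was 3.11-fold higher, Myc 2.61-fold and the stress cytokine gene Gdf15 2.39-fold, all with adjusted p of at most 0.0034. In the difference of the knockout contrasts, 6 were called higher and 6 lower, where 8.57% and 9.9% of all genes were. Among the 12 were Prom1 (1.96), Dcdc2a (1.56), Hmox1 (-2.11), Il34 (-1.83) and Ccn2 (-1.62).

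Receptors, ligands and filament partners of the 10 genes formed a list of 17, of which 15 were tested. In TRACK over WT, where 35.7% of all genes were called, 5 were called higher and 3 lower. Itgb3, a chain of an osteopontin-binding integrin, was 4.32-fold higher (5.69 ± 1.18 against 1.31 ± 0.15 CPM, adjusted p = 1.86e-05, edgeR), Itga4, the integrin chain that binds VCAM-1, 2.29-fold, Itga9 1.97-fold and Itgb1 1.28-fold. Lrp8, Lrp2 (megalin, which takes up filtered NGAL) and Slc22a17, an NGAL receptor, were lower by 2.98-, 1.64- and 1.38-fold. In GCERAdT over TRACK, where 4.83% of all genes were called, the single call was Itgb3, 3.77-fold lower (1.50 ± 0.41 CPM, adjusted p = 0.0029). Its knockout contrasts differed by -2.35 (adjusted p = 0.000522). In GCERAd over WT, where 20.0% of all genes were called, Itga9 was higher, and Dsp (1.70-fold), Krt7 (1.33-fold) and Slc22a17 (1.27-fold) were lower. In GCERAdT over GCERAd Sox4 (1.52-fold), Itgav (1.47-fold) and Dsp (1.25-fold) were higher and 0 lower by edgeR, with 1 lower at an unadjusted p under 0.05 and 1 by DESeq2, and 6 were called with the replicate block. The share called over all genes was 12.9% by edgeR.

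The 27 genes of proximal tubule identity, all tested, showed the transport side of these samples. In TRACK over WT 9 were called higher and 9 lower (11 in all with library kind as a covariate), where 18.2% of all genes were called higher and 17.5% lower. Gatm, a creatine synthesis enzyme, was 5.53-fold lower (111 ± 16.5 against 614 ± 66.0 CPM, adjusted p = 3.24e-07, edgeR), Slc22a8 3.70-fold, the phosphate transporter gene Slc34a1 2.87-fold and Miox 2.75-fold, while Cyp2e1, Kap and Pck1 were higher by 4.04-, 3.22- and 3.04-fold. Kap and Cyp2e1 are known to be higher in male than in female mouse kidney, and sex cannot be told apart here. In GCERAd over WT, where 10.3% of all genes were called higher and 9.72% lower, 8 of the 27 were higher and 0 lower by edgeR. At an unadjusted p under 0.05 and by DESeq2, 0 were lower as well. The highest folds were those of Cyp2e1 (9.52), Kap (3.68), Acsm2 (3.31) and Slc22a6 (2.65).

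Between the male groups, GCERAdT over GCERAd had 0 of the 27 called higher and 13 lower by edgeR, with 0 higher also at an unadjusted p under 0.05 and by DESeq2, and a median of -0.48 beside 0.02 over all genes. Shares over all genes were 6.3% higher and 6.6% lower. Cyp2e1 was 3.33-fold lower, Slc34a1 2.58-fold (1491 ± 174 against 3832 ± 874 CPM, adjusted p = 0.00044, edgeR), Miox 2.47-fold and Acsm2 2.11-fold. In GCERAdT over TRACK, where 4.83% of all genes were called, 3 were higher (Gatm 2.53-fold, Slc22a8 1.74-fold and Slc34a3 1.46-fold) and 2 lower (Slc5a1 1.52-fold and Slc27a2 1.35-fold).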

How the data were processed

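Kidney cortex RNA of 17 samples was sequenced with the TruSeq Stranded mRNA kit, and the authors used Cutadapt for trimming, STAR for alignment to GRCm38 and HTSeq-count for counting. The deposited table holds raw counts of reads per gene without normalization. The annotation release and the strand setting of the counting are not given in the sources used here. Totals per sample were 53688512 to 71364561, a median of 58709786. Groups and replicate numbers came from the sample titles.

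From the counts, CPM with TMM scaling was computed, and edgeR's quasi-likelihood test compared the groups (R 4.3.3, edgeR 4.0.16, limma 3.58.1) over genes with a mean CPM of at least 0.1, with Benjamini-Hochberg adjustment over all of them. A gene was called at an adjusted p of at most 0.05. Values per length used the merged exons of GENCODE M21. DESeq2 (1.42.0 here), the tool of the study, was kept as an alternative with the same minimum CPM of 0.1. An edgeR fit with a minimum mean FPKM of 1 in a group was another alternative. DESeq2 with the FPKM minimum, as in the study's methods, was not fitted. On counts simulated for GCERAd over WT with 200 changed genes, 79.8% of genes changed 2-fold and 100% of those changed 4-fold were called. Over the comparisons, 2-fold changes were called in 62.9% (difference of the contrasts) to 81.7% (GCERAdT over TRACK). For 4-fold changes the lowest share was 81%, in the difference. Changes were placed only in genes above a minimum mean count, so these shares do not cover genes of few counts such as Sox9.

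The 10 genes and all lists were chosen with earlier results of these data known. Genes named from the lists are, per comparison and direction, up to 4 called genes of largest fold change with a mean CPM of at least 1. A gene of these lists that met the rule is counted but not reported here by name. Likeness was taken as Pearson's r of log2(CPM + 0.5) over 17 samples. Marker lists of 12 other kidney cell types were summed as CPM, and 5 sex chromosome genes were read as a check of the samples.

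Alternatives were DESeq2, RLE scaling, other minimums, a block on the replicate number, a single fit of all 17 samples and each library left out. Added after seeing the data were library kind, the summing of possible repeat libraries and the fit without GCERAd 4 and 5. Same-numbered GCERAdT and GCERAd libraries deviated together (correlations of 0.387, 0.489, 0.487 and 0.388). Numbers 1 and 2 are also kind A and 3 and 4 kind B in both groups, so these correlations cannot tell a pairing from library kind. The replicate block is therefore not read as a paired test of mice. Same-numbered libraries of the other pairs of groups did not deviate together. The table has 663 genes without a name, and no sample column was left unused.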

Additional observations from a re-analysis of the deposited data

Results flagged for a closer look

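In 30 pairs of gene and group (groups of 4 or 5), 2 samples lay apart from their group, and chance alone gives about 1 in 20. GCERAdT 3 was highest in Vcam1 at 12.6 CPM, where the other 3 held 11.1 to 11.2. GCERAdT 4 was lowest in Sox9 at 0.110 CPM, which is 7 counts, where the others held 0.576 to 0.619.

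The effect of the ATF4 knockout label differed with and without the transgene for 3 genes by the interaction test of edgeR. Vcam1 differed by -1.21 on the log2 scale (adjusted p = 0.000945), rising in GCERAd over WT and falling in GCERAdT over TRACK. Krt20 differed by -3.76 (adjusted p = 0.00535), and Havcr1, higher with the label in both backgrounds, by -2.87 (adjusted p = 0.0313). Sex cannot be told apart from these differences, since WT alone is female. Within kind B libraries, which leave 1 WT sample, none of the 3 was called (adjusted p = 0.109, 0.126 and 0.365).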

How the results depend on the processing

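Over 1030 refits of single members, 907 kept direction and side of the threshold, 68 lost and 14 gained a call, and 41 changed sign, 0 of the latter with a call in the original fit. Depth limits Sox9, Krt20 and Havcr1 in WT, which rest on few counts. In what follows, a fit without single mice is a fit without single libraries, which may be repeats of a mouse.

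Members called in GCERAd over WT were 5 (3 within kind A and 0 within kind B), in GCERAdT over TRACK 4 (2 with the replicate block, 1 with all 17 samples, 0 with library kind as a covariate, 0 within kind B, 1 with possible repeats summed, 0 to 3 without single mice), in TRACK over WT 6 (3 with the covariate, 3 within kind B), in GCERAdT over GCERAd 3 (1 within kind B, 1 with repeats summed, 1 to 4 without single mice), and in the difference of the contrasts 3 (0 within kind B).

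Genes called in all were 3423 in GCERAd over WT (2141 with the replicate block, 114 within kind B), 851 in GCERAdT over TRACK (1769 with DESeq2, 440 with the covariate, 208 within kind B, 509 with repeats summed, 374 to 1468 without single mice), 6219 in TRACK over WT (3571 with the replicate block, 2683 with the covariate, 1293 within kind B), 2248 in GCERAdT over GCERAd (3962 with the replicate block, 362 within kind B, 1127 with repeats summed, 3570 without GCERAd 4 and 5, 1438 to 2399 without single mice) and 3225 in the difference (364 within kind B). Kind B leaves 1 WT library, so fewer samples enter those fits. With the covariate, TRACK is in effect compared with WT 2 alone, or with GCERAdT 3 and 4, since all TRACK libraries are kind B. Those fits are thus no check separate from the ones within kind B. The cause of the other shifts was not tested.

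Of the partner genes, 4 were called in GCERAd over WT (0 within kind B), 1 in GCERAdT over TRACK (0 with the FPKM minimum), 8 in TRACK over WT (5 with the FPKM minimum, 4 with the covariate, 3 within kind B), 3 in GCERAdT over GCERAd (6 with DESeq2, 6 with the replicate block, 5 with all 17 samples, 5 with the covariate, 0 within kind B) and 2 in the difference (1 with no minimum, 4 with the covariate, 0 within kind B, 1 with repeats summed, 4 without GCERAd 4 and 5, 1 to 3 without single mice). Of the other injury genes, 13 were called in GCERAd over WT (1 within kind B), 5 in GCERAdT over TRACK (2 with all 17 samples, 3 with the covariate, 1 within kind B, 3 to 6 without single mice), 28 in TRACK over WT (13 with the covariate, 13 within kind B), 13 in GCERAdT over GCERAd (22 with the replicate block, 4 within kind B, 21 without GCERAd 4 and 5) and 12 in the difference (2 within kind B). Of the proximal tubule genes, 8 were called in GCERAd over WT (1 within kind B, 13 without GCERAd 4 and 5), 5 in GCERAdT over TRACK (10 with DESeq2, 3 with the covariate, 1 within kind B, 2 to 7 without single mice), 18 in TRACK over WT (11 with the covariate, 9 within kind B), 13 in GCERAdT over GCERAd (20 within kind A, 1 within kind B) and 12 in the difference (1 within kind B).

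The replicate block ended the member calls of Vcam1 (-0.55, adjusted p = 0.0537) and Lcn2 (-2.17, 0.0553) in GCERAdT over TRACK and of Krt18 in TRACK over WT (0.37, 0.1), and no other. Same-numbered libraries did not deviate together in these pairs of groups.

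Changes of sign on the log2 scale were as follows, all without a call. Within kind B, Cd44 (-0.10) and Krt8 (0.20) in GCERAd over WT turned, as did Krt8 (0.27) and Sox9 (-0.01) in TRACK over WT, Spp1 (0.16), Krt8 (-0.19) and Sox9 (-0.09) in GCERAdT over GCERAd, and Clu (-0.17), Krt8 (-0.45) and Krt18 (-0.05) in the difference. With the covariate these were Krt8 (0.27) and Sox9 (-0.01) in TRACK over WT, and Clu (-0.13) and Krt8 (-0.08) in the difference. With the replicate block they were Sox9 in GCERAdT over TRACK (0.04), and Clu (-0.19) and Sox9 (0.67) in the difference. Without GCERAd 4 and 5, Clu (-0.05) and Sox9 (0.21) turned in the difference. Without single mice, the ranges that crossed 0 were -0.76 to 0.09 (Spp1), -0.11 to 0.07 (Krt8) and -0.92 to 0.08 (Sox9) in GCERAdT over TRACK, -0.09 to 0.05 (Krt8) and -0.14 to 0.86 (Sox9) in TRACK over WT, -0.15 to 0.04 (Spp1) and -0.01 to 0.19 (Krt8) in GCERAdT over GCERAd, and -1.20 to 0.15 (Lcn2), -0.01 to 0.12 (Clu) and -0.52 to 0.49 (Sox9) in the difference. Spp1 in GCERAdT over TRACK and Lcn2 in the difference crossed 0 without TRACK 3.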

Other observations

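For each of the 10 genes, the genes whose log2 levels over the 17 samples were most like its own are given by Pearson's r as a description, with groups, sex and library kind shared by the points. Nearest to Havcr1 were Tbx10 (0.956), Gclc, a glutathione synthesis enzyme (0.951), and Kcnj8 (0.950). Vcam1 was nearest to F2r, the thrombin receptor gene (0.945), Ms4a6c (0.937) and the connexin gene Gja1 (0.935). Krt20 was nearest to Fblim1 (0.939), Gpnmb (0.923) and Wfdc1 (0.912), and Cd44 to Dpysl3 (0.900), Cd38 (0.893) and Trp53inp1 (0.880). Spp1 was nearest to Gnb5 (0.946), Slc25a4 (0.936) and Cnst (0.930), and Lcn2 to Tmem43 (0.913), Mxd4 (0.911) and Clec18a (0.900). Krt8 was nearest to Tsc22d4 (0.924), Map1lc3b (0.881) and Agpat3 (0.850), and Krt18 to Amotl1 (0.853), Fhdc1 (0.846) and Slc44a2 (0.842). Clu was nearest to Arhgef28 (0.865), Wnk4 (0.856) and Syde1 (0.855). Sox9, the member with the fewest counts, had the lowest values, 0.702 for Gsdmd, 0.689 for Wdr60 and 0.653 for Setd7.

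The remaining marker sums, and again that of the thick ascending limb, ran as follows in WT, GCERAd, TRACK and GCERAdT. Thick ascending limb markers summed to 6905 to 10151, 4699 to 6712, 5120 to 7590 and 5998 to 6335 CPM. Intercalated cell markers summed to 260 to 291, 199 to 227, 201 to 211 and 193 to 250, and podocyte and parietal markers to 368 to 503, 352 to 461, 538 to 561 and 387 to 458. Macrophage markers summed to 94.5 to 113, 63.9 to 111, 99.3 to 101 and 81.5 to 104, lymphocyte markers to 1.85 to 3.07, 1.24 to 3.54, 1.77 to 3.77 and 3.55 to 4.47, and adipocyte markers to 42.9 to 69.8, 37.8 to 85.4, 48.1 to 138 and 42.3 to 69.2. Taken singly, 3 of the 4 adipocyte markers tested were called lower and 0 higher in GCERAdT over TRACK by edgeR. Of all genes tested there, 2.98% were called lower.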
